A study of Mus musculus with 8 samples.

Results

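The 8 genes described here code for the meiotic forms of cohesin, the general subunits RAD21 and SMC3, and the enzyme and inhibitor that control how cohesin is cut: Rec8, Rad21l, Rad21, Smc1b, Smc3, Stag3, Espl1 and Pttg1. They were taken by name, as probe sets whose symbol field held only that gene. Each had 1 such probe set, so all 8 were measured, out of 29455 genes with a symbol of their own on the array. Their probe sets matched the annotated genes by accession in all 8 cases. On the GRCm38.p6 assembly of the mouse genome Rec8 spans chr14:55618002-55625395, Rad21l chr2:151644366-151670622, Stag3 chr5:138272514-138312397, Smc3 chr19:53600396-53645831 and Pttg1 chr11:43420244-43427463. The other three lie on chromosome 15, with Rad21 at chr15:51962604-51993538, Smc1b at chr15:85064689-85131957 and Espl1 at chr15:102296254-102324357.

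Cohesin is a ring that holds sister chromatids together, built from an SMC1 and an SMC3 arm, a kleisin that closes the ring, and a STAG subunit bound to the kleisin. In meiosis SMC1B, the kleisins REC8 and RAD21L, and STAG3 replace subunits of the somatic ring. In the mouse oocyte this cohesion is built before birth and has to last through the long prophase arrest, until separase cuts the kleisin at the meiotic divisions. Separase is held inactive by securin and by CDK1 with cyclin B1, and the anaphase-promoting complex ends that inhibition, while shugoshin with the phosphatase PP2A shields the kleisin at centromeres.

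The study measured total RNA of oocytes on 8 Affymetrix MoGene-2_1-st arrays, 4 per group. The mice were ICR females of 8 weeks kept on a diet without phyto-oestrogens. Control animals were untreated. The other animals received bisphenol S (BPS), an analogue of bisphenol A, by gavage for 7 days, at a daily dose of 0.1 ng per g of body weight, dissolved in 50% glycerol with 0.1% DMSO. No vehicle is named for the control animals, so vehicle and gavage cannot be told apart from BPS. The labels describe collected ovaries in one place and oocyte RNA in another. They do not say from which animals, or from how many oocytes, each array came, so p-values measure the spread between these samples, which may be technical.

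Values are log2 signals from the authors' RMA summary. A difference is the BPS mean minus the control mean of these log2 signals, and errors are the SD over the 4 arrays of a group (n = 4) or SE for a difference. Signals of different genes come from different probes and are not ranked against each other. A background level of 4.54 was taken from 1570 probe sets of Y-linked genes and of olfactory or vomeronasal receptors, 95% of which had a mean signal below it. Array medians lay between 4.15 and 4.21, and correlations between arrays between 0.941 and 0.982. All 10 oocyte marker genes lay above background, with a median signal of 10.10. Of other cell types, 2 of 10 granulosa cell genes (Inha and Nr5a2) and 1 of 3 endothelial genes (Pecam1) lay above it, and 0 of 8 theca and stroma, 0 of 5 immune and 0 of 3 erythroid genes. The median of the granulosa cell genes per array lay between 4.17 and 4.21 in control and between 4.17 and 4.38 in BPS arrays.

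In the authors' table the arrays carry names of 2 kinds, ending in a number or in a letter, with 2 of each kind in each group. Their meaning was not given in the sources used here. The letter-named arrays differed from the number-named ones in 1899 of 34472 probe sets, 5.51%, at a limma adjusted p under 0.05, so each comparison below is also given within each kind.

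Promoter sequence is shown for Smc1b and Stag3, which in mouse somatic cells are known to be silenced through E2F6, and for Espl1, whose window held both of the other motifs searched. The windows are from RefSeq on GRCm38.p6 and run 5′ to 3′ over 280 bases, from 250 before a transcript start to 30 from it on. They are Smc1b at chr15:85131928-85132207 on the minus strand, Stag3 at chr5:138280259-138280538 on the plus strand and Espl1 at chr15:102296043-102296322 on the plus strand. Capitals mark the motifs TTCCCGC, an E2F-type element, CACGTG, an E-box, and TTTGAA, the cell cycle homology region known as CHR.
Smc1b: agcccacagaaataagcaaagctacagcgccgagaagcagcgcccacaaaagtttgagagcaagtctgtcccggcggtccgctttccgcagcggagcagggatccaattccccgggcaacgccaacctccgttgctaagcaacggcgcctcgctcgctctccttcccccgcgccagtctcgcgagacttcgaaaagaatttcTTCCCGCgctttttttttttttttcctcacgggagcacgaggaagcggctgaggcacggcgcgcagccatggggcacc
Stag3: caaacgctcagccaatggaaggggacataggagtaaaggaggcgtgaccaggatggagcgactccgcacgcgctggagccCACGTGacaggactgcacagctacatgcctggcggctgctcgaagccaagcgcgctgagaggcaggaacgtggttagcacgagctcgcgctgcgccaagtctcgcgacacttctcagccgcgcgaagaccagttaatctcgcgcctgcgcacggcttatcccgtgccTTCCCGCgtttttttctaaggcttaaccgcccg
Espl1: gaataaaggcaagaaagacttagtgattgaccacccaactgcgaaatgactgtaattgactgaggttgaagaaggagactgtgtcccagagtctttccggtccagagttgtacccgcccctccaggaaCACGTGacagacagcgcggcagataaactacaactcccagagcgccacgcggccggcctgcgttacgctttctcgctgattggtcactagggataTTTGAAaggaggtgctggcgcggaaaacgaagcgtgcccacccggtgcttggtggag

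Windows were found for 7 of the 8 genes, all but Rad21. On either strand TTCCCGC was found in 4.29%, CACGTG in 6.79% and TTTGAA in 17.2% of 32817 windows of this length. No motif overlapped another in these windows. The E2F-type element stood at bases -48 to -42 of Smc1b and at -3 to 4 of Stag3, counted from the transcript start, and in none of the other 5 windows. The E-box stood at -170 to -165 of Stag3 and at -122 to -117 of Espl1. The CHR element stood at -27 to -22 of Espl1 and, on the other strand, at -138 to -133 of Rad21l. Rec8, Smc3 and Pttg1 held none of the 3 motifs. The start used for Stag3 lies 7995 bases inside the annotated gene, that of Rad21l 2089 and that of Pttg1 1482, so other starts of these genes are not covered. The Rad21l window had a GC content of 26.4%, against 54.6 to 63.9% in the other 6 and a median of 52.5% over all windows. A match in these letters is a description of the window and no evidence of binding.

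BPS and control arrays were compared to ask whether the low dose changed the transcripts of the cohesin ring and of its cleavage. None of the 8 genes passed in limma at an adjusted p under 0.05, a threshold that 3 of 34472 probe sets passed (0.0087%). Adjusted p lay between 0.403 for Stag3 and 0.925 for Smc1b. At an unadjusted p under 0.05 there were 2 of the 8, Stag3 and Rad21l, both higher in BPS, against 11.1% of all probe sets, or 7.99% counting those higher in BPS alone. The balance of higher and lower probe sets depended on the scaling. After quantile normalization 4 of the 8 had an unadjusted p under 0.05, Stag3 and Rad21l higher and Smc3 and Pttg1 lower, and over all probe sets 1813 were higher and 1940 lower, against 2756 and 1071 with the deposited values. The differences ran from -0.17 for Smc3 to 0.19 for Stag3, which is at most 1.14-fold in either direction. Their median was 0.12, and the median over all probe sets above background was also 0.12. With 4 arrays a group the 95% intervals reached from 0.14 to 0.41 log2 units to either side, for each gene on its own and with no adjustment for the number of probe sets. In bulk RNA a change in the number of cells of a type and a change in RNA per cell cannot be told apart.

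**Figure D1:**
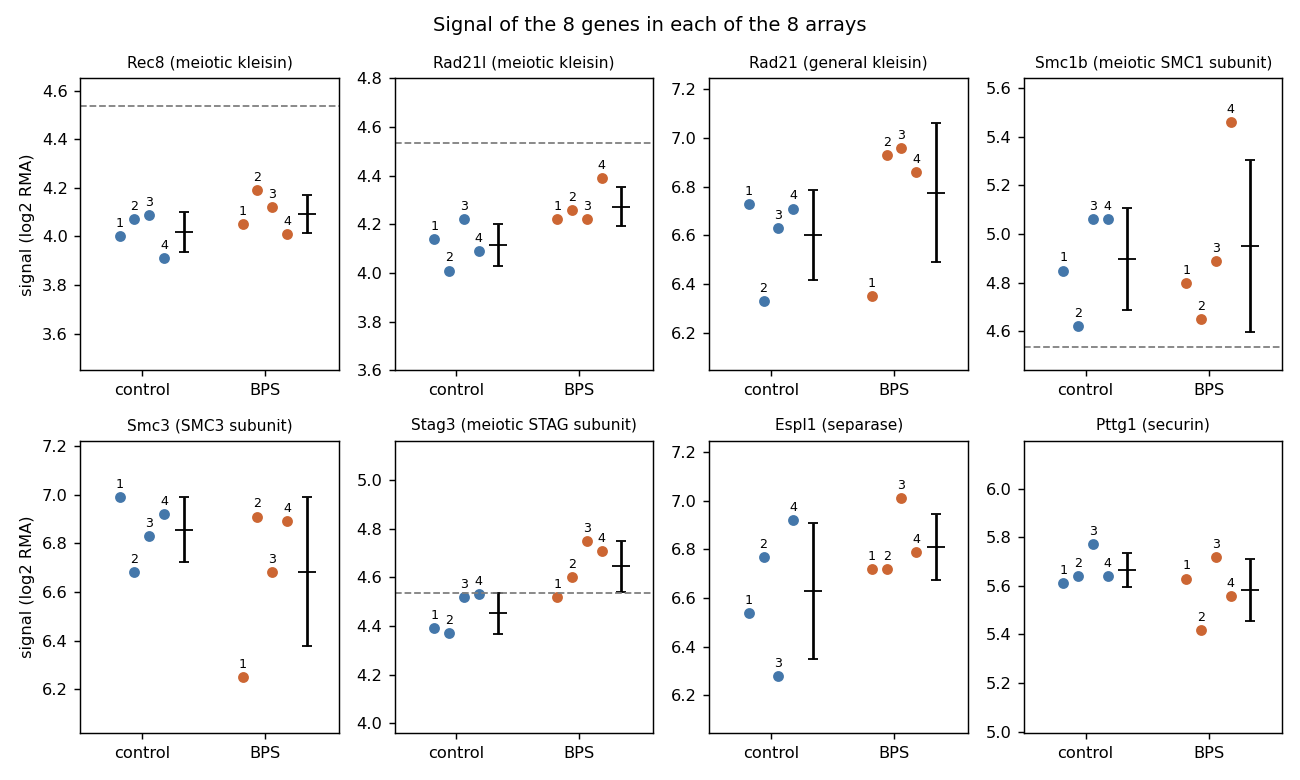
Signal of the 8 genes in log2 RMA units (vertical axis, each panel spanning 1.2 units) in the control and BPS arrays. Points are arrays numbered by replicate, bars are mean ± SD over 4 arrays, and the dashed line is the background level of 4.54 where it falls in the panel. Control and BPS points overlap in every panel, and Rec8 and Rad21l lie below the line throughout.

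The kleisins come first. Rec8, the kleisin that separase cuts in meiosis, stood at 4.00, 4.07, 4.09 and 3.91 in control replicates 1 to 4 and at 4.05, 4.19, 4.12 and 4.01 in BPS replicates 1 to 4. All 8 arrays lay below the background level, and the groups overlapped. The means were 4.02 ± 0.08 and 4.09 ± 0.08 (SD, n = 4), a difference of 0.08 ± 0.06 (SE, limma adjusted p = 0.648). At this level the array gives no evidence of Rec8 transcript above that of receptor genes, and a difference there does not show how the transcript behaved.

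Rad21l, a kleisin of meiotic prophase, lay at 4.14, 4.01, 4.22 and 4.09 in control and at 4.22, 4.26, 4.22 and 4.39 in BPS arrays. These values too were all below background. 2 BPS arrays were above the highest control and the other two equalled it. The difference was 0.16 ± 0.06 (SE, 95% interval 0.01 to 0.30, limma adjusted p = 0.423). It was 0.17 within the number-named and 0.15 within the letter-named arrays.

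Rad21, the kleisin of the somatic ring, was well above background in every array. It gave 6.73, 6.33, 6.63 and 6.71 in control and 6.35, 6.93, 6.96 and 6.86 in BPS arrays. BPS replicates 2 to 4 lay above every control array, while BPS replicate 1 lay near the lowest one. The means were 6.60 ± 0.19 and 6.78 ± 0.29 (SD, n = 4), a difference of 0.18 ± 0.15 (SE, limma adjusted p = 0.671), which became 0.32 without BPS replicate 1, 0.12 without BPS replicate 2, 0.11 without BPS replicate 3 and 0.09 without control replicate 2. It was 0.02 after quantile normalization.

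Of the SMC arms, Smc1b, the meiotic partner of Smc3, had the widest spread of the 8 genes, an SD of 0.27 over all arrays. Its signals were 4.85, 4.62, 5.06 and 5.06 in control and 4.80, 4.65, 4.89 and 5.46 in BPS arrays. Every value lay above background, the highest and the second lowest were both BPS arrays, and all control arrays but the lowest lay within the BPS range. The means were 4.90 ± 0.21 and 4.95 ± 0.35 (SD, n = 4), with a difference of 0.05 ± 0.18 (SE, 95% interval -0.36 to 0.47, limma adjusted p = 0.925). Its direction was not stable. It was -0.12 without BPS replicate 4, -0.04 without control replicate 2, -0.07 after quantile normalization and -0.01 within the number-named arrays. In the authors' deposited table the group averages were 4.94 for control and 4.79 for treated, a signed fold of 1.11 with control higher and a p of 0.739. These averages differ from the arithmetic means above, and the kind of average was not given in the sources used here.

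Smc3, the arm shared by somatic and meiotic rings, stood at 6.99, 6.68, 6.83 and 6.92 in control and at 6.25, 6.91, 6.68 and 6.89 in BPS arrays. The low value was BPS replicate 1, the same array that was low for Rad21. The other 3 BPS arrays lay within the control range. The difference was -0.17 ± 0.15 (SE, limma adjusted p = 0.669), and it was -0.03 without BPS replicate 1. Smc3 and Pttg1 were the members with a negative difference, and both were further below 0 after quantile normalization, at -0.33 for Smc3 (limma adjusted p = 0.406) and -0.25 for Pttg1 (limma adjusted p = 0.358).

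Stag3, the STAG subunit of meiotic rings, had the smallest p of the 8. Its signals were 4.39, 4.37, 4.52 and 4.53 in control and 4.52, 4.60, 4.75 and 4.71 in BPS arrays. BPS replicates 2 to 4 lay above every control array, while BPS replicate 1 equalled control replicate 3. All control arrays lay below the background level and 3 of the BPS arrays above it, so the mean of 4.55 over all arrays sat at that level. The group means were 4.45 ± 0.08 and 4.65 ± 0.10 (SD, n = 4), a difference of 0.19 ± 0.07 (SE, 95% interval 0.04 to 0.35, limma adjusted p = 0.403).

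Stag3 also differed between the 2 kinds of array names, by 0.16 ± 0.04 (SE, limma adjusted p = 0.0685), higher in the letter-named arrays. Among number-named arrays it lay at 4.37 and 4.39 in control and at 4.52 and 4.60 in BPS. Among letter-named arrays it lay at 4.52 and 4.53 in control and at 4.71 and 4.75 in BPS. The groups therefore did not overlap within either kind, with differences of 0.18 and 0.21, and Stag3 was the 1 gene of the 8 of which this held, against 17.7% of all probe sets. With the series of names as a block the Stag3 difference passed (limma adjusted p = 0.0489), as did 3.47% of all probe sets. It did not pass in that fit after quantile normalization (difference 0.13, limma adjusted p = 0.190) or without any 1 of the 8 arrays (limma adjusted p between 0.077 and 0.133). With the replicate numbers as a block its limma adjusted p was 0.0825, and 0 of the 8 genes passed, where 1.99% of all probe sets did. Replicates 1 and 2 of each group were the number-named arrays and the others letter-named. The block for replicate numbers therefore also takes out the kind of name.

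**Figure D2:**
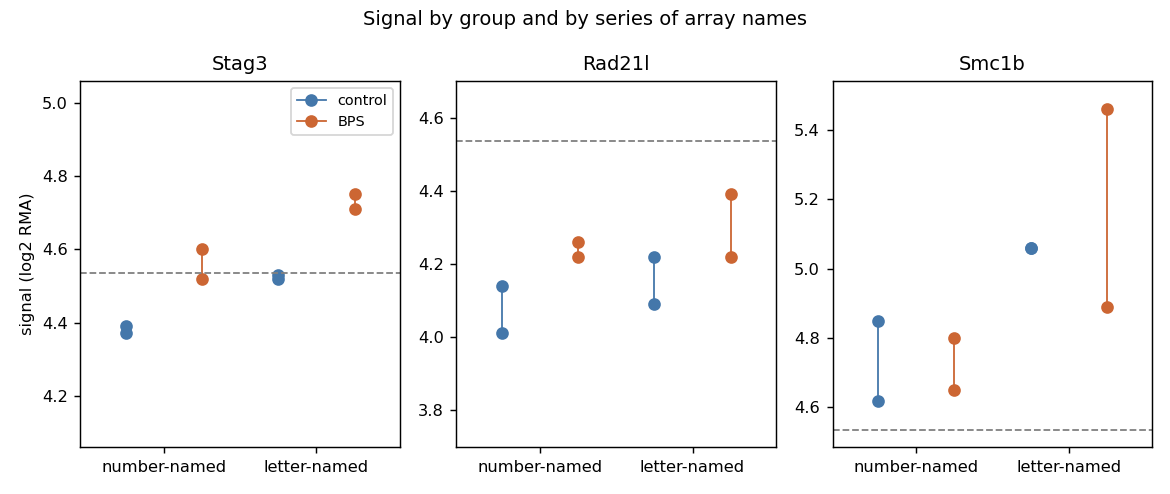
Signal of Stag3, Rad21l and Smc1b in log2 RMA units, with each point an array and each line joining the 2 arrays of a group within the number-named or letter-named arrays; the dashed line is the background level. For Stag3 the BPS points lie above the control points in both kinds, whereas for Smc1b they overlap in the number-named arrays and lie on both sides of the control points, which coincide at 5.06, in the letter-named ones.

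Across the other members the letter-named arrays were higher by 0.39 ± 0.12 (SE) for Smc1b (limma adjusted p = 0.124) and by 0.21 ± 0.14 for Rad21 (limma adjusted p = 0.429). Of the 8 genes 7 were higher in the letter-named arrays and Rec8 was lower, by -0.05 ± 0.06 (SE). None of the 8 passed at an adjusted p under 0.05. In the lists described below, 21 of 26 cohesin regulators and 16 of 18 separase control genes were higher there too. The share over all probe sets is not given here, so no result about these genes is drawn from the count. For Smc1b this difference was larger than that between BPS and control. Its number-named arrays ran from 4.62 to 4.85 and its letter-named ones from 4.89 to 5.46 without overlap. How many of all probe sets lacked overlap between the kinds was not counted. In size the difference between kinds was also the larger for Rad21 (0.21 against 0.18) and for Pttg1 (0.10 against -0.08).

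Separase and its inhibitor complete the set. Espl1, the gene of separase, gave 6.54, 6.77, 6.28 and 6.92 in control and 6.72, 6.72, 7.01 and 6.79 in BPS arrays. The 4 BPS arrays were close together and lay within the control range except for replicate 3. The means were 6.63 ± 0.28 and 6.81 ± 0.14 (SD, n = 4), a difference of 0.18 ± 0.14 (SE, limma adjusted p = 0.628). Leaving out control replicate 3 gave 0.07, BPS replicate 3 gave 0.12 and control replicate 4 gave 0.28. It was 0.07 within the number-named and 0.30 within the letter-named arrays, and 0.04 after quantile normalization.

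Pttg1, the gene of securin, gave 5.61, 5.64, 5.77 and 5.64 in control and 5.63, 5.42, 5.72 and 5.56 in BPS arrays. 2 BPS arrays lay below every control and the others inside the control range. The difference was -0.08 ± 0.07 (SE, 95% interval -0.25 to 0.08, limma adjusted p = 0.676), and it was -0.03 without BPS replicate 2. Separase and securin thus had differences of opposite sign, neither larger than the spread between arrays in this test.

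**Figure D3:**
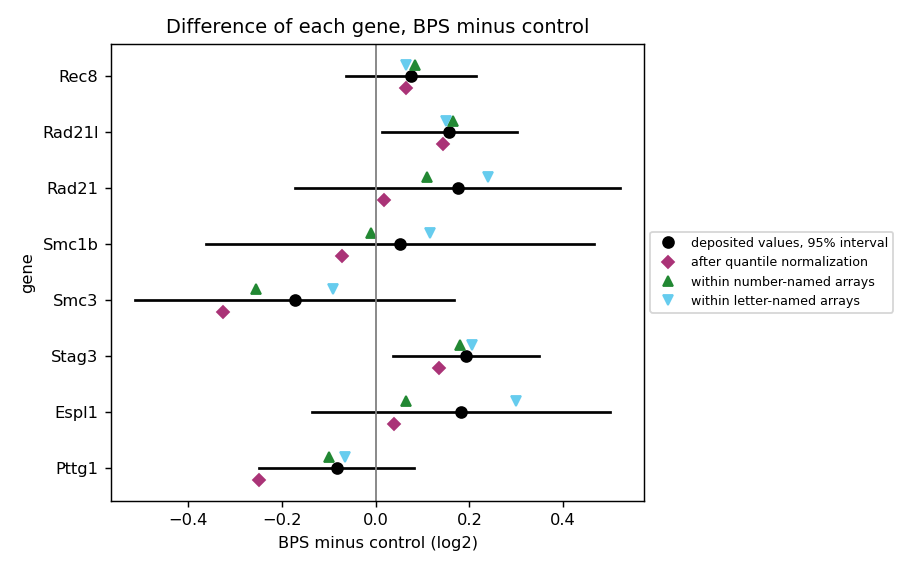
Difference of each gene, BPS minus control, in log2 units (horizontal axis). Black points and lines are the deposited values with the 95% interval of the limma fit, diamonds the values after quantile normalization, and triangles the values within the number-named and letter-named arrays; only the intervals of Rad21l and Stag3 leave out 0, and the diamonds of Rad21, Smc1b and Espl1 lie near 0.

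The shift common to well measured probe sets bears on these signs. Over all probe sets above background the deposited values gave a median difference of 0.12. Centring each array on its median left it at 0.10, and quantile normalization at 0.00. Relative to that median, Stag3 was higher by 0.08, Espl1 by 0.07 and Rad21 by 0.06, while Smc3 stood at -0.29, Pttg1 at -0.20 and Smc1b at -0.07. In the authors' deposited table the FDR of the 8 genes lay between 0.864 (Stag3 and Rad21l) and 0.965 (Smc1b), with p of 0.056 for Stag3 and 0.079 for Rad21l.

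A list of 27 cohesin regulators held genes that load, protect and release cohesin and also the other core subunits Smc1a, Stag1 and Stag2. Of these 27 genes, 26 had a probe set of their own and all 26 lay above background. None passed at an adjusted p under 0.05 without a block. At an unadjusted p under 0.05 there were 5 of 26 (19.2%), all of them higher in BPS. The share over all probe sets was 11.1%, or 7.99% counting those higher. A fit of only the 10138 probe sets above background gave 1653 at that threshold, of which 1337 were higher. After quantile normalization the genes with an unadjusted p under 0.05 were Stag1 and Mau2, higher, and Sgol2b, lower by -0.24. Over all 34472 probe sets there were then 3753, of which 1813 were higher and 1940 lower. With the deposited values the median difference of the list was 0.13, with 20 positive and 6 negative members, where 60.0% of all probe sets were positive. After quantile normalization the median was 0.00, with 13 positive and 13 negative, where 50.4% of all probe sets were positive. These shares are not given here for probe sets above background alone. Pds5b, a factor that binds the kleisin, had no probe set with a symbol of its own.

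Mau2, a subunit of the cohesin loader, gave 5.88, 6.03, 5.87 and 6.11 in control and 6.26, 6.16, 6.55 and 6.41 in BPS arrays, without overlap. Its difference was 0.37 ± 0.10 (SE, limma adjusted p = 0.362). Bub1, the kinase whose mark on centromeric histone H2A recruits shugoshin, gave 5.59, 5.49, 5.82 and 5.19 in control and 5.96, 5.89, 5.99 and 6.15 in BPS arrays, also without overlap, and differed by 0.48 ± 0.13 (SE, limma adjusted p = 0.369). Across the list the groups did not overlap in 3 genes, the third being Sgol1, against 5.8% of all probe sets and 0 of the 8 cohesin and separase genes. Sgol1 codes for the shugoshin SGO1 and was chosen after its values were seen. It gave 5.52, 6.02, 6.03 and 6.02 in control and 6.04, 6.10, 6.60 and 6.35 in BPS arrays, with a difference of 0.38 ± 0.16 (SE, limma adjusted p = 0.440). Control replicate 1 was far below the other control arrays, and the difference was 0.25 without it and 0.19 after quantile normalization.

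Ppp2r5a, a B56 subunit of PP2A, gave 5.04, 4.69, 4.58 and 4.69 in control and 4.98, 5.61, 4.94 and 5.23 in BPS arrays. The ranges overlapped, and the difference was 0.44 ± 0.16 (SE, limma adjusted p = 0.408). Stag1, a STAG subunit of somatic cohesin, gave 4.52, 4.59, 4.86 and 4.94 in control and 4.90, 4.85, 5.25 and 5.42 in BPS arrays. Its difference was 0.38 ± 0.15 (SE, limma adjusted p = 0.427). Like its meiotic relative Stag3 it was higher in the letter-named arrays, by 0.40 ± 0.06 (SE, limma adjusted p = 0.0124), and within each kind of names its BPS arrays lay above its control arrays without overlap. Counting either direction, 7 of the 26 regulators were without overlap within both kinds, against 17.7% of all probe sets. The replicate block also takes out the kind of name, so the fits with either block are not separate checks. With the replicate block Stag1 passed (limma adjusted p = 0.0459), as did 1.99% of all probe sets, and with the series of names as a block too (limma adjusted p = 0.0198), as did 3.47%. In the latter fit its limma adjusted p was 0.0582 after quantile normalization, and it passed in 4 of the 8 fits that left out 1 array, with a limma adjusted p of up to 0.0666. Those 8 fits each called between 279 and 1229 of all 34472 probe sets.

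Genes that control securin destruction and separase made a list of 20, of which 18 had a probe set of their own, all above background. None passed without a block, and 2 of 18 (11.1%) had an unadjusted p under 0.05, both higher in BPS. The share over all probe sets was 11.1%, or 7.99% counting those higher. The fit of only the 10138 probe sets above background gave 1653 at that threshold, of which 1337 were higher. After quantile normalization Fzr1 joined the 2 genes of the list, lower by -0.27, where 3753 of all 34472 probe sets had an unadjusted p under 0.05. The median difference was 0.14, with 14 positive and 4 negative members, and 0.04 after quantile normalization, with 13 positive and 5 negative. Over all probe sets 60.0% were positive with the deposited values and 50.4% after quantile normalization. Ube2s and Anapc11 had no probe set with a symbol of their own.

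Fbxo43, which codes for EMI2, the inhibitor of the anaphase-promoting complex in metaphase II eggs, gave 7.67, 7.71, 7.50 and 7.58 in control and 7.92, 7.94, 7.98 and 7.91 in BPS arrays. The groups did not overlap, which held for 1 of the 18 genes, against 5.8% of all probe sets. The difference was 0.32 ± 0.06 (SE) and the limma adjusted p was 0.209. The other three named genes are subunits of that complex. Cdc16 differed by 0.48 ± 0.18 (SE, limma adjusted p = 0.416), Anapc1 by 0.17 ± 0.08 (limma adjusted p = 0.462), which was 0.00 after quantile normalization, and Anapc10 by 0.34 ± 0.20 (limma adjusted p = 0.533). Anapc10 was also higher in the letter-named arrays, by 0.51 ± 0.08 (SE, limma adjusted p = 0.0189). With the replicate block Anapc10 passed (limma adjusted p = 0.0473), as did 1.99% of all probe sets, but not with the series of names as a block (limma adjusted p = 0.0804). In the series block Fbxo43 passed (limma adjusted p = 0.0239), as did 3.47% of all probe sets, but not in that fit after quantile normalization (limma adjusted p = 0.141) or with the replicate block (limma adjusted p = 0.0627). It passed in 2 of the 8 series-block fits that left out 1 array, with a limma adjusted p of up to 0.0745, where each fit called between 279 and 1229 of all 34472 probe sets.

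**Figure D4:**
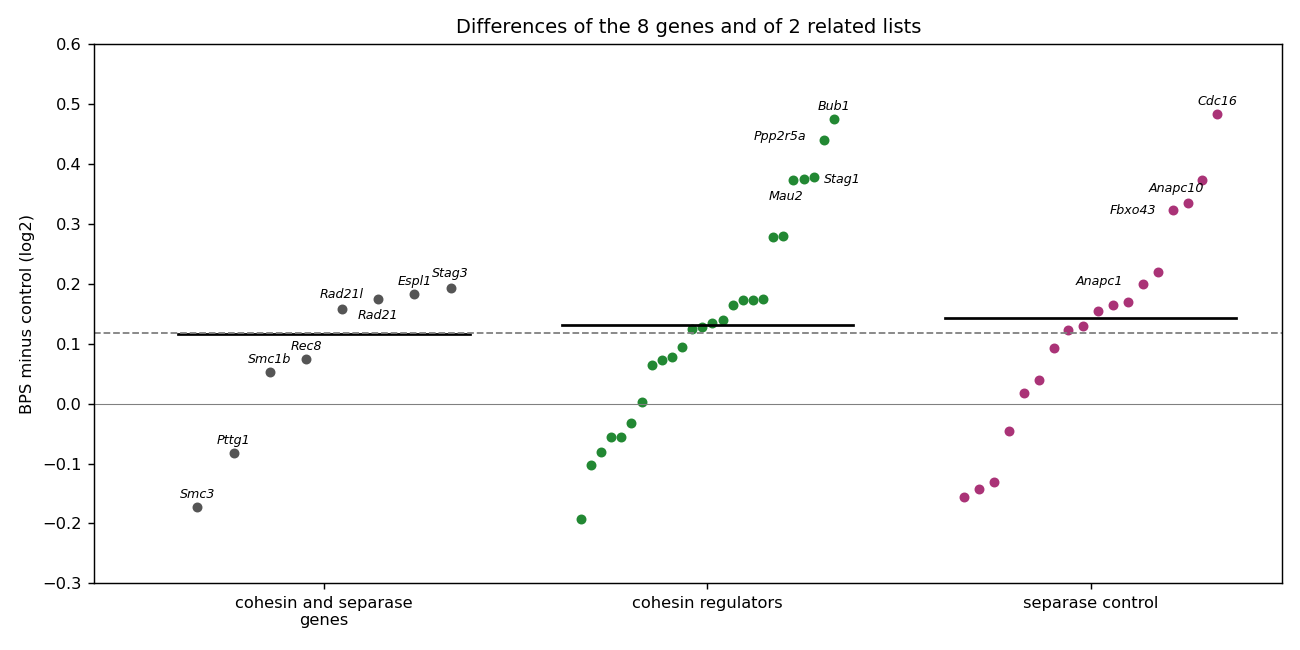
Difference of each gene, BPS minus control, in log2 units (vertical axis) for the 8 cohesin and separase genes, 26 cohesin regulators and 18 genes of separase control, each ordered by value, with the named genes labelled. Solid lines are list medians of 0.12, 0.13 and 0.14, and the dashed line is the median of 0.12 over all probe sets above background, close to all of them.

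For Smc1b, the gene that varied most, the genes with the most similar pattern were sought among 7572 single-symbol probe sets above background, each centred on its own mean over the 8 arrays. The smallest root mean square distances were those of Agtpbp1 (0.06 log2 units), Polr2e (0.07) and Mrps11 (0.07), against a median of 0.29 over all of them. Agtpbp1 codes for a carboxypeptidase that trims tubulin, Polr2e for a shared RNA polymerase subunit and Mrps11 for a mitochondrial ribosomal protein. Polr2e was at 7.52, 7.24, 7.72 and 7.69 in control and at 7.46, 7.29, 7.66 and 7.96 in BPS arrays, with replicate 2 of each group lowest and BPS replicate 4 highest, as for Smc1b. With 8 arrays and so many candidates, close patterns are a description of these arrays.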

How the data were processed

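The deposited tables hold log2 signals with 2 decimals, made by the authors with RMA at gene level, per the file headers, on NetAffx release 36 annotation for mm10; Transcriptome Analysis Console is the tool in the submitters' processing notes. The workbook's 8 signal columns equalled those of the series matrix. The authors' deposited p-values and FDR, their group SD and signed fold (a score, control over treated per the file headers) were used only where named; the test behind them was not given in the sources used here. All 34472 probe sets were fitted with limma 3.58.1 in R 4.3.3 (lmFit, eBayes, two-sided, no covariate, Benjamini-Hochberg), and the fit was tested on simulated data. At an adjusted p under 0.05 it recovered 26% of simulated differences of 0.5 log2 units and 94% of those of 2.0. Smaller differences were not simulated. Precision is limited by the number of arrays.

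The members and lists were chosen with earlier results of these data known, and the motifs with the promoter sequences in view. Besides all 8 members, the 4 genes of each related list with the smallest unadjusted p were named, and the 3 genes nearest in pattern to the most variable member, passing over predicted symbols. Older and current symbols were looked for. Arrays of the same number in both groups had deviations from the group mean that correlated at 0.519, 0.383, 0.173 and 0.362; each was over the threshold of 0.1 used to treat the numbers as pairing. Some arrays of different numbers correlated as much, such as control 4 with BPS 3 (0.493), control 1 with BPS 2 (0.453), control 3 with BPS 4 (0.437) and control 2 with BPS 1 (0.305), so these values do not single out the same-numbered arrays, and the labels do not say what a number shares. In both groups replicates 1 and 2 are number-named and 3 and 4 letter-named. All pairs of the same kind of name correlated positively, at 0.173 to 0.519. All pairs of different kinds correlated negatively, at -0.553 to -0.268. The sign of the correlation thus followed the kind of name. Promoters were read from the RefSeq table for GRCm38.p6. Python 3.11.15, pandas 2.3.3 and matplotlib 3.10.9 were used for tables and plots.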

Additional observations from a re-analysis of the deposited data

Results flagged for a closer look

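Rad21 in BPS replicate 1 stood apart from the other 3 BPS arrays, at 6.35 against 6.86 to 6.96. The gap to its nearest neighbour was 0.836 of the range of the group, above Dixon's 95% critical value for 4 samples. Of 16 genes checked in both groups it was the 1 case, and chance flags about 1 in 20 groups. The 16 were the members and the genes named by p from the related lists. Sgol1 was not among those checked, although its control replicate 1 also stood apart, at 5.52 against 6.02 to 6.03.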

How the results depend on the processing

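The number of probe sets called, 3 in limma without a block, was 0 after quantile normalization (3753 at an unadjusted p under 0.05), 1 after median centring, 0 with an intensity trend (3950 at an unadjusted p under 0.05), 685 with the replicate block and 1195 with a block for the kind of array name. Leaving out 1 array in turn gave 0 to 3. Of the 8 genes, 0 passed under each of these settings except for 1, Stag3, with the series of names as a block, and 0 passed in that fit when 1 array was left out or after quantile normalization, both added after the data were seen. The replicate block gave 1 call among the cohesin regulators and 1 among the separase control genes, and no call among the 8. The number of the 8 genes with groups that did not overlap lay between 0 and 2 with any 1 array left out: Rad21 and Stag3 without BPS replicate 1 and Rad21l without control replicate 3. Groups separate more easily with 1 array fewer. The share over all probe sets is not given for these settings, so no result about these genes is drawn from the counts. The direction was kept under all alternatives that could be computed for 7 of the 8 genes. Smc1b turned, with -0.072 after quantile normalization with or without the series block, -0.01 within number-named arrays, between -0.12 and 0.15 when 1 array was left out, and -0.074 in the series block without 1 letter-named BPS array. The median of the cohesin regulators was 0.0013 after quantile normalization and lay between 0.07 and 0.19 with 1 array left out, that of separase control from 0.06 to 0.22. The cause of these changes was not tested. No member had a further probe set to exchange for the one used, and Rec8 and Rad21l could not be fitted among probe sets above background, nor Rec8 among those above the median signal.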
